A study of Mus musculus with 8 samples.

Results

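Open chromatin was described at 9 mouse genes of cadherin-based cell adhesion, by the deposited ATAC-seq peaks that lay within 50 kb of their gene bodies in cultured cortical neurons. The genes were Ctnnd1, Ctnnd2, Ctnnb1, Ctnna1, Ctnna2, Cttnbp2, Cdh2, Cdh8 and Cdh11, and all 9 were matched by symbol among 21883 protein-coding genes of GRCm38. They were chosen by the presence and fold of their peaks in these same lists, so both are given as a description, with no test. Peaks that overlapped by at least 1 bp were joined into one site across lists, and 53 of the 62023 sites of the genome lay in the windows of these genes.

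ATAC-seq cuts accessible DNA with the Tn5 transposase, so that a peak marks a stretch of open chromatin. The cells were primary cortical neurons of mouse embryos (day 16.5). Wild-type neurons (Brg1 WT, here WT) were set against neurons with floxed Brg1 alleles and a BAF53b-driven Cre (BAF53bCre Brg1F/F, here cKO). On day 6 in vitro each genotype was either left without KCl (basal) or depolarised for 1 h with 50 mM KCl. TTX at 1 µM and APV at 100 µM, which block sodium channels and NMDA receptors, were given on day 5 before depolarisation, and the labels do not say whether basal cultures received them. BAF53b is a neuronal subunit of the BAF complex, and cells of the culture that do not use its promoter would keep Brg1. Each of the 4 conditions had 2 libraries of 50000 cells but 1 deposited list, so no value has a replicate error and no test compares the conditions.

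Classical cadherins are transmembrane proteins that bind each other across the gap between cells. Their cytoplasmic tails hold p120-type catenins near the membrane and beta-catenin further along, and alpha-catenin links beta-catenin to actin filaments. In neurons this complex lies at synapses and acts in migration and dendrite growth, and beta-catenin is also the transcriptional partner of TCF/LEF factors in Wnt signalling. Brg1 is an ATPase of the BAF complex, which moves nucleosomes.

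The lists held 20229 to 34061 peaks, with WT basal the longest and WT KCl the shortest. Fold is the authors' fold over local background at the peak summit, and its median per list lay between 2.82 and 3.08. The fragment pileup at each summit was solved from the fold and the p-value. Its median was 30 to 33 fragments per list, no peak of the WT KCl list had fewer than 20, and the most frequent background was 8.23 to 9.47 fragments. That background was 9.3 and 8.23 in WT (basal, then KCl) and 9.47 and 8.36 in cKO. Over these backgrounds the same pileup gives a higher fold in a KCl list than in a basal list. Smarca4, the gene of Brg1, had a gene-end site in all lists with a fold of 4.89 and 5.32 in WT (basal, then KCl) and 5.21 and 5.62 in cKO. The labels do not say which part of the gene is deleted, so this site checks no label. Of 6 neuronal marker genes, 3 or 4 per list had a peak within 1 kb of a gene end, with Dcx and Rbfox3 lacking one throughout. Of 4 microglial genes, 0 had one in any list. Among all protein-coding genes, 46.5% and 39.8% had such a peak in WT (basal, then KCl) and 38.8% and 45.2% in cKO. Counts over so few genes therefore cannot show which cells were present. In list order (WT basal and KCl, then cKO), progenitor markers had one at 3, 1, 1 and 2 of 4 genes, oligodendrocyte lineage markers at 2, 1, 2 and 1 of 4, and vascular markers at 0, 0, 1 and 2 of 4. Astrocyte markers had such peaks at 3 of 4 genes in WT basal (Aldh1l1, Gfap and Slc1a3) and at 0 of 4 in each other list, and the part of such cells in the results was not tested.

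Across the 9 genes, WT lists had peaks at 32 (basal) and 24 (KCl) sites, and cKO lists at 23 and 25. A peak in all 4 lists was found at 10 of the 53 sites (18.9%, exact 95% Clopper-Pearson interval 9.44 to 32.0), beside 11.6% of all sites of the genome. In 1 list alone were 28 sites (52.8%, 38.6 to 66.7), beside 71.4% of all sites. These intervals, like all others here, cover counting error only. Of the 10 sites in every list, 8 lay within 1 kb of an annotated gene end, beside 75.6% of such sites in the genome. The other 2 were intragenic, inside Ctnnd1 and Cdh11 (beside 15.4%). Of the 28 sites in 1 list, 0 were within 1 kb of a gene end (beside 10.8% of such sites in the genome). Of these, 23 were intragenic (beside 47.4%) and 5 intergenic (beside 41.9%). However, 1 of the 28 lay over the RefSeq start of Cdh8, which is inside the annotated gene body. The windows were drawn around gene bodies, which by itself raises the intragenic share and lowers the intergenic share. Single-list sites were above the median fold of their list at 8 of 13 in WT basal, 2 of 9 in WT KCl and 0 of 3 in each cKO list. Their folds reached 3.31 and 3.36 in WT (basal, then KCl) and 2.85 and 2.70 in cKO, with pileups of 22 to 38 fragments. The share above the median over all single-list sites of the genome is not given here. These counts therefore cannot set the members or the genotypes apart.

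**Figure D1:**
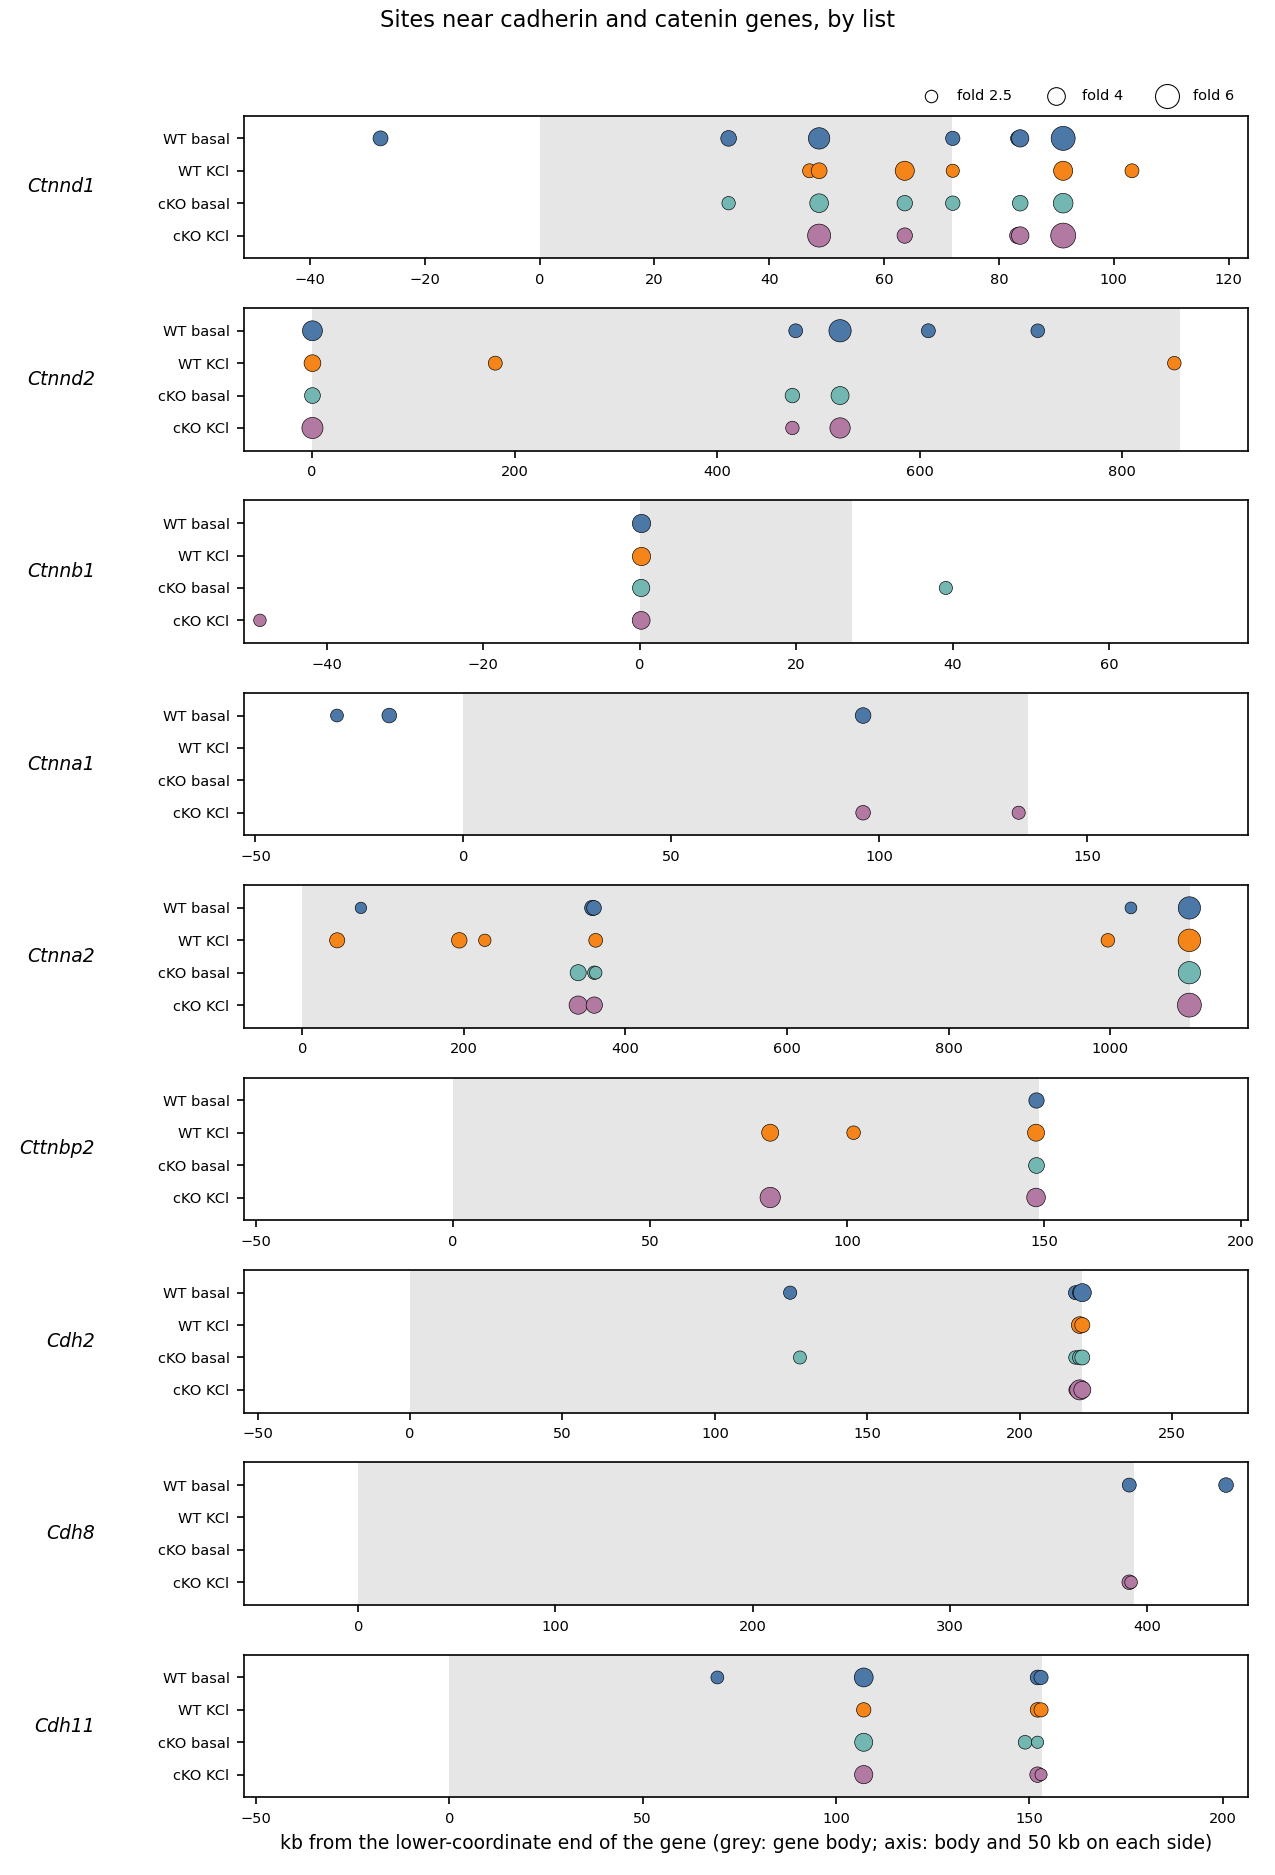
Sites of each gene by list. The x axis is the distance in kb from the lower-coordinate end of the gene, grey is the gene body, each row of points is one list, and point area rises with the authors' fold. Columns of 4 points mark the 10 sites in all lists, most of them at a gene end, and isolated points mark the 28 sites of a single list.

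Among the catenins of the p120 type, Ctnnd1 encodes p120-catenin, which holds cadherins at the cell surface, and lies on chromosome 2 (84587096 to 84658977, minus strand). Its window of 172 kb held 10 sites, with 7 and 6 in WT (basal, then KCl) and 6 and 5 in cKO. Ctnnd1 had 5.82 sites per 100 kb of window, the only one of the 9 genes above the median of 4.07 over all protein-coding genes. Some of these sites lay at or inside the neighbours Selenoh, Tmx2, Med19 and Zdhhc5, so the density belongs to the window and not to Ctnnd1 alone. RefSeq gives 2 Ctnnd1 starts with a promoter sequence, 250 bases before the start and 50 after. Both are printed because each coincided with a site that was missing from exactly 1 list. Capitals mark CG dinucleotides.

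Ctnnd1 upstream start, chr2:84658928-84659227, minus strand (GRCm38.p6): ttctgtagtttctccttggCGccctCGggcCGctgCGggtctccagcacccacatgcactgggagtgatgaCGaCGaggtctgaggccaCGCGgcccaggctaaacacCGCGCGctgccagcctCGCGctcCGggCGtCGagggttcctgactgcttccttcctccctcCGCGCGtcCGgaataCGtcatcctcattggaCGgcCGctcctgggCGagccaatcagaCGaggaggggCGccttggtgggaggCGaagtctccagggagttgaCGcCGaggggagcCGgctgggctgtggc

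Ctnnd1 internal start, chr2:84650691-84650990, minus strand (GRCm38.p6): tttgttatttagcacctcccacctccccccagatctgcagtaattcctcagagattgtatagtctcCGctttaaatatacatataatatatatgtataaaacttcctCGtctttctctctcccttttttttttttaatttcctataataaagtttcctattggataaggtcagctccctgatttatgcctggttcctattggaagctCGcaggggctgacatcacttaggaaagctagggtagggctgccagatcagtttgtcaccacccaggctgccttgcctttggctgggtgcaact

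The upstream sequence holds 30 CG dinucleotides and is 67.7% G or C, and the internal one holds 3 and is 42.7% G or C. At the upstream start, a site at 84658899 to 84659226 had folds of 3.01 and 2.71 in WT (basal, then KCl) and 3.06 in cKO basal, and cKO KCl had no peak. The pileups were 30, 24 and 31 fragments, beside list medians of 32, 30 and 33. This site covered 299 of the 300 bases and also the end and promoter window of the neighbouring gene Btbd18, so it cannot be given to Ctnnd1 alone. At the internal start, a site centred 8.27 kb into the gene (84650549 to 84650858) had no WT basal peak, a fold of 4.44 in WT KCl and folds of 3.34 and 3.31 in cKO (basal, then KCl). Its pileups in the same order were 40 fragments (exact 95% Poisson interval 28.6 to 54.5), 34 (23.5 to 47.5) and 30 (20.2 to 42.8), and the intervals overlap. Peak summits lay 14, 8 and 12 bp downstream of the internal start in these 3 lists. This site counts as intragenic by gene ends alone, and the RefSeq start places it at a promoter window.

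A peak at so CG-poor a window was uncommon in these lists. Of 32851 RefSeq promoter windows, 28.7% were overlapped by a WT basal peak, 25% by a WT KCl peak, 23.9% by a cKO basal peak and 28.8% by a cKO KCl peak. Among the 14310 windows with at most 5 CG, a limit chosen after the Ctnnd1 value was seen, the shares were 2.05, 1.05, 1.15 and 1.87%. Windows overlapped in 3 lists had a median of 23 CG (middle range, 25th to 75th percentile, 16 to 31), and windows overlapped in none had a median of 4.

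Elsewhere in the Ctnnd1 window, an intragenic site 23.2 kb downstream of the upstream start (84635543 to 84636031) had a peak in every list. Its fold was 5.15 and 3.47 in WT (basal, then KCl) and 4.30 and 5.67 in cKO. WT KCl was lowest and cKO KCl highest, with pileups of 31 (21.1 to 44.0) and 54 (40.6 to 70.5) fragments. The same order held at the strongest site of the window, 84678009 to 84678569, with folds of 6.01, 4.44, 4.61 and 6.32 in the order of lists used above. That site lies 19.0 kb outside Ctnnd1 at ends of Tmx2, a thioredoxin-like membrane protein, and Med19, a Mediator subunit. Next to it, the Selenoh and Tmx2 ends carried a pair of sites only 41 bp apart, one in WT basal and cKO KCl (3.11 and 3.63) and one in all lists except WT KCl (3.89, 3.40 and 3.95). Of the other 4 sites, 1 was in both basal lists (84619884 to 84620170, 3.40 and 2.77), 1 in WT basal alone (84559273 to 84559549, 3.21) and 2 in WT KCl alone (2.92 each, at 84634005 to 84634241 and inside Zdhhc5 at 84690169 to 84690374).

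Ctnnd2 encodes delta-catenin, a neuronal relative of p120-catenin found at dendritic spines, on chromosome 15 (30172534 to 31029344, plus strand). Although its window spans 957 kb, it held 8 sites, or 0.836 per 100 kb, with 5 in WT basal and 3 in each other list. Its promoter sequence is shown because the site over it was the Ctnnd2 site present throughout, with folds that fell into a high and a low pair of lists. Capitals mark CG, of which there are 28.

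Ctnnd2 start, chr15:30172284-30172583, plus strand (GRCm38.p6): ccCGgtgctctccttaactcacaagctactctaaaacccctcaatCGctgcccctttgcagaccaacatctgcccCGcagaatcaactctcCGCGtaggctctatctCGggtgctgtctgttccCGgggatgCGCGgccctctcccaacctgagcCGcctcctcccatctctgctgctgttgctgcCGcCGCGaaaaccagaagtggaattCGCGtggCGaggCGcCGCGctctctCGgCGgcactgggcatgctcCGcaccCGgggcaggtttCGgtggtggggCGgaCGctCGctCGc

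The site over this sequence (30172241 to 30173471) had a fold of 4.67 and 3.72 in WT (basal, then KCl) and 3.44 and 5.07 in cKO. WT basal and cKO KCl were thus the high lists, with pileups of 55 (41.4 to 71.6) and 53 (39.7 to 69.3) fragments. WT KCl and cKO basal were the low ones, with 36 (25.2 to 49.8) and 35 (24.4 to 48.7). Summits lay 95, 130 and 70 bp downstream of the start in WT basal, WT KCl and cKO KCl, and 556 bp downstream in cKO basal, so the cKO basal value comes from another part of the site. The site also covers a promoter window of Gm31953.

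Deep inside Ctnnd2, 521 kb from the start, lay the strongest of all 53 sites with a peak missing from some list (30693702 to 30694162). Its fold was 5.44 in WT basal, 4.11 in cKO basal and 4.81 in cKO KCl, and WT KCl had no peak. The pileups were 55 (41.4 to 71.6), 42 (30.3 to 56.8) and 44 (32.0 to 59.1) fragments, while the WT KCl list holds peaks down to 20. A weaker site at 30646706 to 30647043 was present in both cKO lists (3.07 and 2.78) and neither WT list, and 2929 bp beyond it a site at 30649973 to 30650306 was present in WT basal alone (2.88). The other 4 were single-list sites of folds 2.81 to 2.92. Those at 30781040 to 30781243 (2.91) and 30889085 to 30889300 (2.84) were in WT basal, and those at 30353305 to 30353504 (2.92) and 31023981 to 31024182 (2.81) in WT KCl. Only the start and the 521 kb site of Ctnnd2 exceeded a fold of 3.1 in any list.

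Beta-catenin, encoded by Ctnnb1 on chromosome 9 (120933400 to 120960507, plus strand), had a start whose fold differed little between lists. The site at its start (120933097 to 120934052) had a fold of 4.19 and 4.17 in WT (basal, then KCl) and 3.89 and 4.05 in cKO, with pileups of 49, 44, 49 and 42 fragments. Joined over lists, it covered both RefSeq promoter windows of Ctnnb1 in full. Those windows hold 46 and 51 CG, the highest numbers of the 8 windows available for 6 of the 9 genes. Besides this site there was 1 in cKO KCl alone (120884775 to 120884974, fold 2.53), 48.4 kb upstream, and 1 in cKO basal alone (120972397 to 120972596, 2.72) inside the neighbouring kinase gene Ulk4. No peak of any list lay inside the Ctnnb1 body away from its start.

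Alpha-catenins bind beta-catenin and actin, and Ctnna2 encodes the neural form. Ctnna2, on chromosome 6 (76881637 to 77979815, minus strand), spans 1098 kb and had 12 sites, the most of the 9 genes, with 5 and 6 in WT (basal, then KCl) and 4 and 3 in cKO. Its promoter is shown as the member start of highest fold in every list. It holds 38 CG, in capitals.

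Ctnna2 start, chr6:77979618-77979917, minus strand (GRCm38.p6): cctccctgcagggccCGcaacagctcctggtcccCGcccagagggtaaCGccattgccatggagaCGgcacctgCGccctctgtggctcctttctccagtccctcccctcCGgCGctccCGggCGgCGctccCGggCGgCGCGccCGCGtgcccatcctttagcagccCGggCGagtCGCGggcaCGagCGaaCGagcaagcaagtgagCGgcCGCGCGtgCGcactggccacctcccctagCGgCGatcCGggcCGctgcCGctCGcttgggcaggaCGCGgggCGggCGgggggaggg

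Over this sequence (77979230 to 77980094) the fold was 5.44 and 5.52 in WT (basal, then KCl) and 5.44 and 5.99 in cKO, and the pileups were 55, 50, 56 and 55 fragments. Away from the start, no Ctnna2 site had a peak in more than 2 lists. A group of 4 sites lay inside Lrrtm1 (77240504 to 77245112), a gene of a synaptic leucine-rich repeat protein that is nested in Ctnna2. Of these, 2 were in WT basal alone (3.31 and 3.11), 1 in both cKO lists (2.77 in basal and 3.60 in KCl) and 1 in WT KCl and cKO basal (2.88 and 2.54). The second WT basal site and the cKO site are 130 bp apart, and joining peaks less than 500 bp apart makes them a single site. A separate site at 77222887 to 77223418 was present in both cKO lists (3.53 in basal and 4.17 in KCl) and in neither WT list. Sites in WT KCl alone numbered 4, at 76924714 to 76924933 (3.25), 77075832 to 77076070 (3.36), 77107452 to 77107657 (2.49) and 77878524 to 77879019 (2.82). The remaining 2, in WT basal alone, were among the weakest of all (2.23 and 2.33). Among 4465 other genes with at least 10 sites, the 3 whose shares of sites per list were nearest to those of Ctnna2 were Hjurp (9, 11, 7 and 5 of 21 sites), Stk36 (6, 7, 5 and 4 of 14) and Mlph (7, 8, 5 and 4 of 17), at Euclidean distances of 0.0292, 0.0445 and 0.0514 over the 4 lists.

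Ctnna1 encodes the widely expressed form of alpha-catenin and lies on chromosome 18 (35118902 to 35254776). No list had a peak within 1 kb of either end of Ctnna1, and neither WT KCl nor cKO basal had any site in its window, against 3 in WT basal and 2 in cKO KCl. One site was shared by those 2 lists, 35214885 to 35215156, with folds of 3.40 and 3.10. It lies inside Ctnna1 at an end of Lrrtm2, another nested gene of a synaptic leucine-rich repeat protein. WT basal alone had sites 30.3 kb and 17.6 kb beyond the lower end (2.61 and 3.12), and cKO KCl alone had one at 35252284 to 35252580 (2.70). All 4 sites were thus found only in the pair of longest lists.

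Of the cadherins, Cdh2 encodes N-cadherin, the main classical cadherin of neurons and their progenitors (chromosome 18, 16588877 to 16809246). Its upper end carried a row of 3 sites. The outermost (16809211 to 16809616) had folds of 4.10 and 3.23 in WT (basal, then KCl) and 3.21 and 3.82 in cKO. The middle one, 140 bp away (16808096 to 16809070), had 3.09, 3.71, 3.08 and 4.73 in the same order, so that WT KCl was above WT basal here and below it at the neighbouring site. The innermost (16806768 to 16807564) was missing from WT KCl and had 2.93, 2.77 and 2.71 in the other lists. In the body, single sites 2926 bp apart were found in WT basal alone (16713429 to 16713725, 2.72) and in cKO basal alone (16716652 to 16716930, 2.67).

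Cdh11 encodes a type II classical cadherin, on chromosome 8 (102632095 to 102785493). It had 4 sites in WT basal and 3 in each other list. An intragenic site (102738991 to 102739540), 107 kb from the lower end, was in all lists with a fold of 4.37 and 3.03 in WT (basal, then KCl) and 4.11 and 4.17 in cKO. WT KCl was the low list, with 27 fragments (17.8 to 39.3) against 44 (32.0 to 59.1) in WT basal. At the upper end, a site at 102783886 to 102784559 had folds of 3.13, 3.10, 2.46 and 3.34 in the order of lists used above. Its neighbour 298 bp further out (102784858 to 102785406) had 2.97 and 2.96 in WT (basal, then KCl) and 2.42 in cKO KCl, without a peak in cKO basal. The cKO basal list had a peak of its own inside the gene at 102780875 to 102781130 (2.85), and WT basal alone had one at 102701314 to 102701513 (2.62).

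Cdh8, also a type II cadherin, spans 393 kb of chromosome 8 (99024471 to 99417666, minus strand). Its 3 sites gave 0.608 per 100 kb, the lowest density of the 9 genes, with 2 sites in WT basal, 2 in cKO KCl and 0 in WT KCl and cKO basal. Its promoter is shown as the one member start with a peak in a single list. It holds 21 CG, in capitals.

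Cdh8 start, chr8:99416422-99416721, minus strand (GRCm38.p6): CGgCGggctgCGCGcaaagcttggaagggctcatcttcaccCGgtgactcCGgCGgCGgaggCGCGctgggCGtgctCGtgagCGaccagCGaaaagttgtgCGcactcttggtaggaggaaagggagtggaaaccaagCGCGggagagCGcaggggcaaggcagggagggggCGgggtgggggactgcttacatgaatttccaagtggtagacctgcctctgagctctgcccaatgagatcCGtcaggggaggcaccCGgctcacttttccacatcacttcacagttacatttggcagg

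In cKO KCl a weak peak (99416290 to 99416544, fold 2.57, 23 fragments) covered 123 of these bases, with its summit 63 bp downstream of the start. The window is shared with A330008L17Rik. A second site, 646 bp further into the gene (99415347 to 99415643), had a fold of 2.91 in WT basal and 3.10 in cKO KCl. The last one lay 46.8 kb outside the gene in WT basal alone (99464447 to 99464716, 3.11).

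Cttnbp2 encodes cortactin-binding protein 2, a neuronal protein that binds the actin regulator cortactin in dendritic spines (chromosome 6, 18366471 to 18515217, minus strand). The site at its start (18513945 to 18515026) had a fold of 3.30 and 3.79 in WT (basal, then KCl) and 3.44 and 4.29 in cKO. By fold both KCl lists were above both basal lists. By pileup they were not, with 33 and 34 fragments in WT (basal, then KCl) and 35 and 40 in cKO. An intragenic site 67.9 kb from the start (18446880 to 18447143) was present in both KCl lists and neither basal list, with a fold of 3.79 in WT and 4.81 in cKO at pileups of 34 and 44 fragments. It was the only one of the 53 sites with that pattern (1.89%, beside 1.35% of all sites of the genome). WT KCl alone had 1 more (18468070 to 18468287, 2.82). WT basal and cKO basal each had 1 site at Cttnbp2, against 3 in WT KCl and 2 in cKO KCl.

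**Figure D2:**
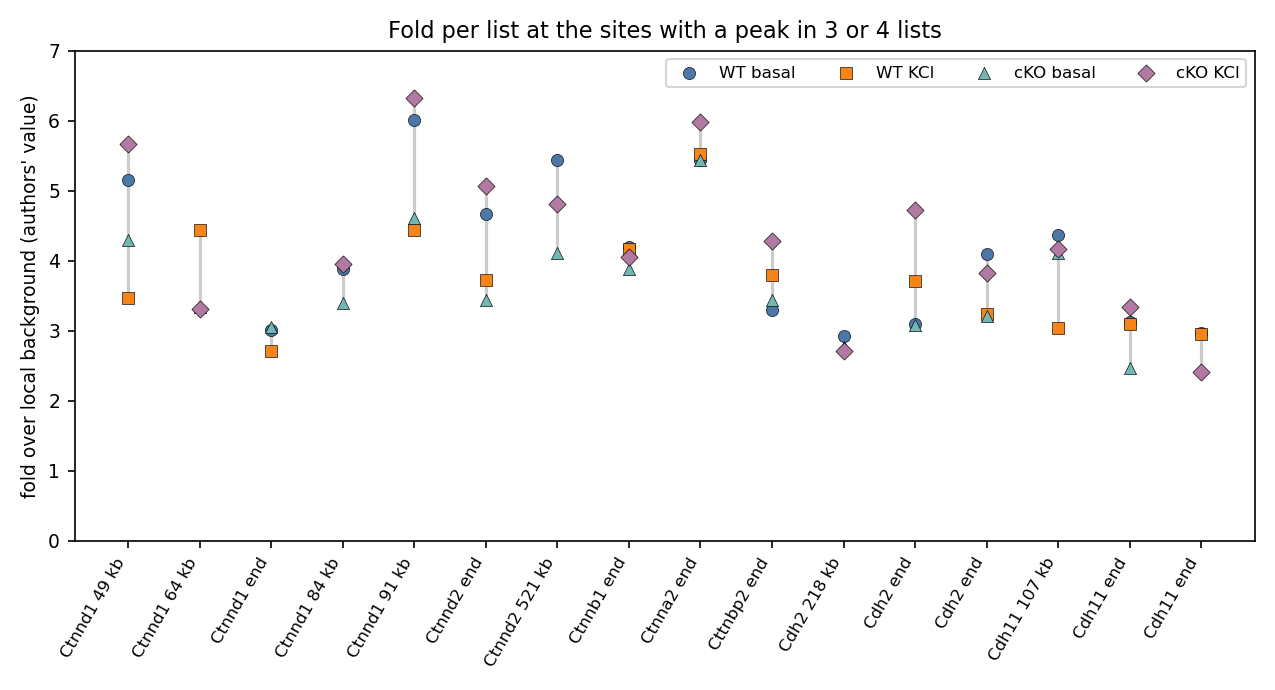
The authors' fold over local background at the 16 sites with a peak in 3 or 4 lists. The x axis names the gene and the place (a gene end, or kb from the lower-coordinate end), symbols are the lists and grey lines join the lowest and the highest fold. Among the sites in all 4 lists, the Ctnna2 and Ctnnb1 starts span the shortest ranges of fold. Both sites of the Ctnnd1 window in all lists run from WT KCl at the bottom to cKO KCl at the top.

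Gene ends with peaks were common among the members. Ctnnd2, Ctnnb1, Ctnna2, Cttnbp2 and Cdh2 had a peak within 1 kb of an end in all 4 lists (5 of 9 genes, beside 29% of all protein-coding genes). Per list it was 7 of 9 for WT basal (46.5% of all genes) and for WT KCl (39.8%), and 6 for cKO basal (38.8%) and for cKO KCl (45.2%). Ctnna1 and Cdh8 lacked such a peak in every list, although cKO KCl had a peak over the RefSeq start of Cdh8, more than 1 kb inside the annotated end. Of the 10 motifs searched on both strands in the 8 member windows, 4 were found: GGGGCGGGG of SP/KLF factors in 3 windows (both of Ctnnb1 and that of Cdh8, beside 11.4% of all windows), AGGGGGC of the CTCF core in 2 (Cttnbp2 and Cdh8, 10.6%), AAGATGGCG of YY1 in the second window of Ctnnb1 (1.40%) and ATTGGCT of NFY in the upstream window of Ctnnd1 (7.86%), 34 bases before its start. The Ctnnb1 windows overlap and hold 1 SP/KLF match in common. In Cdh8 the SP/KLF and CTCF matches overlap. No member window held the AP-1 letters TGACTCA (5.20% of all windows), the CRE TGACGTCA (1.79%), the E-box CAGCTG (16.3%), the TCF/LEF letters CTTTGAT (3.73%), the MEF2 letters CTATTTATA (0.429%) or the NRF1 letters GCGCATGCG (1.75%).

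In cultures not given KCl, the question was which sites had a peak in each genotype. Of 40 sites with a peak in either list, 17 were in WT basal only (42.5%, 27.0 to 59.1, beside 53.7% of all sites) and 8 in cKO basal only (20%, 9.05 to 35.6, beside 22.2%). The sites of highest fold in WT basal only were the Lrrtm2 site in Ctnna1 (3.40), the first Lrrtm1 site in Ctnna2 (3.31) and the flank site of Ctnnd1 (3.21). In cKO basal only they were the 77222887 site of Ctnna2 (3.53), the internal start of Ctnnd1 (3.34) and the 30646706 site of Ctnnd2 (3.07). Fewer sites in cKO basal were found at 6 of the 9 genes (57.3% of all genes) and more at 1, Ctnnb1 (11.4%). At 15 shared sites the ratio of cKO to WT fold had a median of 0.876 (range 0.735 to 1.04), beside 0.915 over all shared sites. It was above 1 at 3 of these 15 (31.2% of all shared sites) and at 2 of the 10 sites in all lists (25.6%), where the median was 0.881 beside 0.889. Both lists held 37.5% of the 40 sites (22.7 to 54.2, beside 24.1%).

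Between WT KCl and cKO KCl, the same question in depolarised neurons, 36 sites had a peak in either list. WT KCl only held 11 (30.6%, 16.3 to 48.1, beside 28.1%) and cKO KCl only held 12 (33.3%, 18.6 to 51.0, beside 43.7%). With all lists cut to the shortest length these were 12 and 9, so the order of the counts turned. Highest in cKO KCl only were the 521 kb site of Ctnnd2 (4.81), the 77222887 site of Ctnna2 (4.17) and the Selenoh site near Ctnnd1 (3.95), and in WT KCl only the sites of Ctnna2 at 77075832 (3.36) and 76924714 (3.25) and of Ctnnd1 at 84634005 (2.92, as for the Zdhhc5 site and the Ctnnd2 site at 30353305). Fewer sites in cKO KCl were counted at 3 genes (20.2% of all genes) and more at 4 (42%). Fold at the 10 sites in all lists was higher in cKO KCl at 9 (73.8% of all such sites of the genome), with a median ratio of 1.23 beside 1.13. The ratio was largest at the intragenic site of Ctnnd1 (1.64). Over the 13 sites shared by these 2 lists, 36.1% of the 36 (20.8 to 53.8, beside 28.2%), 10 were higher in cKO KCl (69.7%), with a median ratio of 1.18 beside 1.10.

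Depolarisation of WT neurons was read from WT basal and WT KCl. Of 44 sites, 20 were in WT basal only (45.5%, 30.4 to 61.2, beside 54.1%) and 12 in WT KCl only (27.3%, 15.0 to 42.8, beside 22.1%). Leading WT basal were the 521 kb site of Ctnnd2 (5.44), the Selenoh site (3.89) and the Lrrtm2 site (3.40), and leading WT KCl were the internal start of Ctnnd1 (4.44), the intragenic site of Cttnbp2 (3.79) and the Ctnna2 site at 77075832 (3.36). Fewer sites after KCl were found at 6 genes (57.2% of all genes) and more at 2, Cttnbp2 and Ctnna2 (11.3%). At the 10 sites in all lists the fold was higher after KCl at 3 (32.5%), the Cttnbp2 and Ctnna2 starts and the middle site of Cdh2, with a median ratio of 0.894 beside 0.914. Over all 12 shared sites, 27.3% of the 44 (beside 23.8%), the number was also 3 (39.1%), with a median of 0.946 beside 0.948. At those 3 sites the pileups (basal, then KCl) were 33 and 34 fragments at Cttnbp2, 55 and 50 at Ctnna2, and 43 and 40 at Cdh2. The most frequent background was 9.3 fragments in WT basal and 8.23 in WT KCl.

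In cKO neurons, 31 sites had a peak with or without KCl. The basal list only held 6 (19.4%, 7.45 to 37.5, beside 28.5%) and the KCl list only held 8 (25.8%, 11.9 to 44.6, beside 43.2%), and with lists of equal length these were 7 and 5. In KCl only the highest were the intragenic site of Cttnbp2 (4.81), the weaker Selenoh site near Ctnnd1 (3.63) and the inner site of Cdh8 (3.10, as for the Lrrtm2 site). In basal only they were the upstream start of Ctnnd1 (3.06), the Cdh11 site at 102780875 (2.85) and the Ctnnd1 site at 84619884 (2.77). Fewer sites after KCl were counted at 3 genes (20.1% of all genes) and more at 3 (42.2%). The fold was higher in KCl at all 10 sites in every list (80.2% of such sites), with ratios of 1.02 to 1.53 and a median of 1.28 beside 1.16. Over the 17 sites shared by the cKO lists (54.8% of the 31, 36.0 to 72.7, beside 28.3%) it was higher at 14 (77.1%), with a median ratio of 1.18 beside 1.14. Of the 10 sites in every list, some had a higher fold in KCl but a lower pileup. These were the Ctnnb1 start (49 and 42 fragments, basal then KCl), the Ctnna2 start (56 and 55) and the intragenic Cdh11 site (42 and 38). The most frequent background was 9.47 fragments in cKO basal and 8.36 in cKO KCl.

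Ctnna1 and Cdh8 had fewer sites after KCl in WT and more in cKO, as did 28.5% of all protein-coding genes, and Ctnna2 had the reverse, as did 2.31%. WT fold was lower and cKO fold higher after KCl at 7 of the 10 sites in all lists, beside 54.5% of such sites in the genome. The all-genome share lay inside the 95% interval of the members in each of the 8 shares of sites in 1 list of a pair. Among the other shares, it lay outside the interval for the sites in both cKO lists and for the sites in 1 of the 4 lists. The same held for sites in cKO KCl alone (5.66%, 1.18 to 15.7, beside 17.0%). It also held for intragenic sites (66.0%, 51.7 to 78.5, beside 41.5%) and intergenic sites (9.43%, 3.13 to 20.7, beside 35.7%). Among the 28 sites in 1 list it held for the intragenic share (82.1%, 63.1 to 93.9, beside 47.4%) and the intergenic share (17.9%, 6.06 to 36.9, beside 41.9%). The windows were drawn around gene bodies, so more intragenic and fewer intergenic sites than over the whole genome are built into that choice. Of the 1198 kb window of Ctnna2, for example, 1098 kb is gene body. None of this is a test, because the genes were chosen by these lists and sites close together are not independent. At the 16 sites with a peak in 3 or 4 lists, the 4 comparisons gave 52 pairs of pileups, and in 0 of them were the exact 95% Poisson intervals apart. Overlap of separate intervals does not test a difference, so whether any single site differed in pileup was not tested. Pairs in which a list had no peak have no pileup and were left out, and pileups were not scaled between lists.

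**Figure D3:**
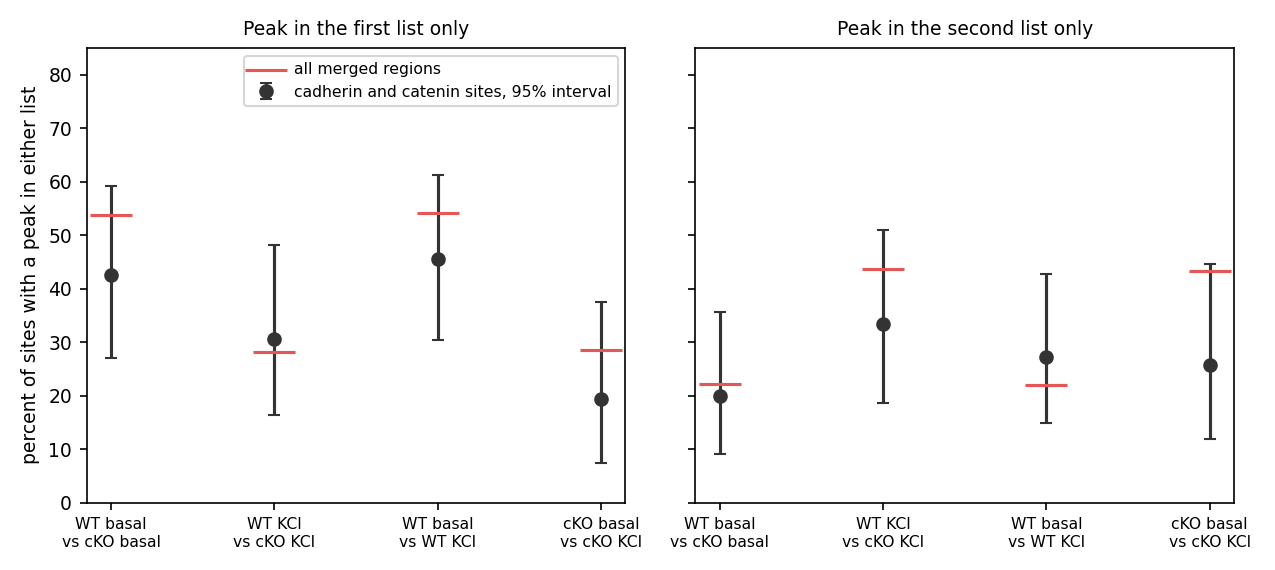
Percent of sites with a peak in the first list only (left) and in the second list only (right) for the 4 comparisons on the x axis. Points are the cadherin and catenin sites with exact 95% intervals, and red bars are all sites of the genome, each of which lies inside the interval beside it.

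The other genes of the pathway were counted in the same way over a list of 33 cadherins, catenins, plakophilins and partners of the junction. Fewer sites in cKO basal than in WT basal were found at 20 of these 33 genes (57.3% of all genes) and more at 3 (11.4%), with Cdh13, the membrane-anchored T-cadherin (21 and 8), Ctnna3, another alpha-catenin (9 and 3), and Cdh4, or R-cadherin (11 and 6), having the largest differences. In cKO KCl against WT KCl 17 had more (42% of all genes) and 7 fewer (20.2%), led by Cdh4 (7 and 14) and, in the other direction, Cdh26 (5 and 1), before 7 genes that differed by 3. After KCl, WT had fewer sites at 25 (57.2% of all genes) and more at 4 (11.3%), led by Cdh13 (21 and 10), Cdh15 (7 and 1) and Ctnna3 (9 and 4). In cKO more sites were found at 15 (42.2% of all genes) and fewer at 7 (20.1%), led by Cdh4 (6 and 14), Cdh13 (8 and 13), the plakophilin gene Pkp4 (1 and 5) and Cdh15 (7 and 3). The medians of the net change were −1, 1, −2 and 0 in this order, beside −1, 0, −1 and 0 over all genes. A gene-end peak in all 4 lists was found at 10 of the 33, beside 29% of all genes.

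**Figure D4:**
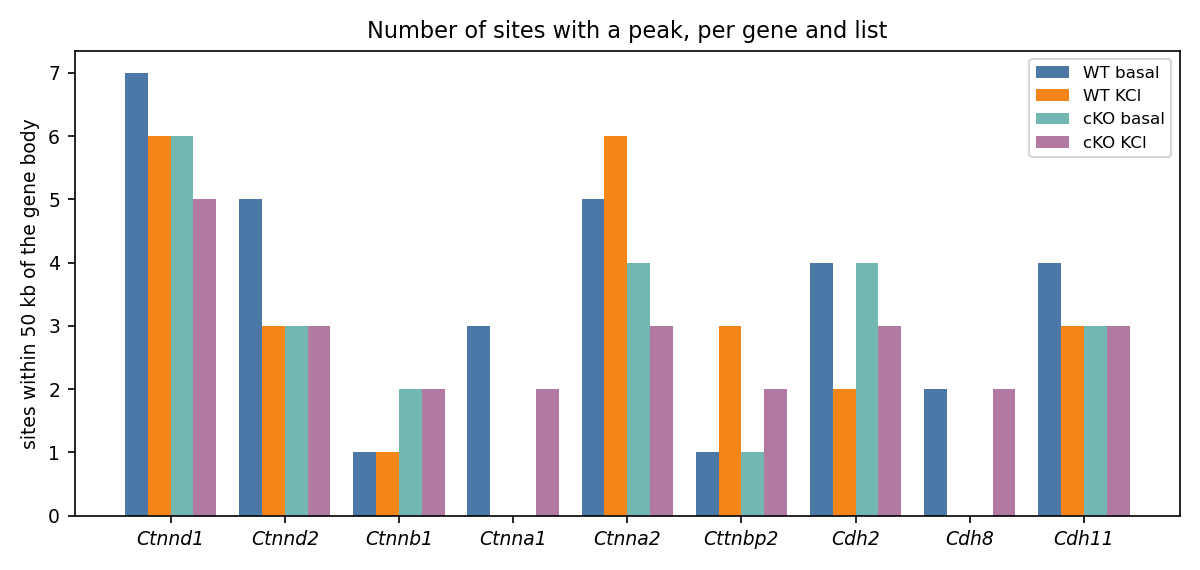
Number of sites with a peak within 50 kb of the gene body (y axis) for each of the 9 genes, with 1 bar per list. Cdh8 and Ctnna1 have no bar for WT KCl and cKO basal, and Cttnbp2 is highest in WT KCl with 3.

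With windows of 10, 50 and 100 kb the genes had 43, 53 and 73 sites. Just inside the 50 kb limit were a site of Ctnnb1 at 48.4 kb (cKO KCl, fold 2.53) and one of Cdh8 at 46.8 kb (WT basal, 3.11). The nearest outside were at 55.6 kb from Ctnnd1, in all lists with folds of 7.38, 4.63, 5.52 and 6.47, at 58.8 kb from Ctnna1 (WT basal, 2.88) and at 62.5 kb from Ctnnb1 (WT basal 3.01 and cKO KCl 3.31). For the other 6 genes the nearest site outside was 155 to 307 kb away.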

How the data were processed

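Per the submitters' processing notes, Bowtie2 and MACS2 were used on GRCm38 (mm10). Tool versions, duplicate handling, Tn5 shift, fragment length range and library pooling are not stated. The authors deposited 1 narrowPeak list of nucleosome-free peaks per condition, tied to it by genotype and treatment. For each peak the authors deposited a score, which is 10 times the −log10 q without its decimals, beside a fold (ratio) over local background, the −log10 of p-value and q-value, and the summit position. From each list 5 mitochondrial peaks were left out. Whole-number pileups were solved from the deposited fold, as (pileup + 1)/(background + 1), and the Poisson p for 100% of peaks within 0.001 in −log10 p. Genes came from RefSeq GRCm38.p6, and promoter sequences from its table, which covered 6 of the 9 genes. Site sequences elsewhere were not analysed here. Gene-end shares use each list's own peaks. Functions were tested on simulated data. Python 3.11.15, pandas 2.3.3 and scipy 1.17.1 were used. Columns of unmatched samples numbered 0.

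Members and lists were chosen with earlier results of these data known. All 9 members are named. Sites are named when in all lists, at a member end or start, among the 3 of highest fold per comparison and direction, or as a member's strongest, and the others are given for completeness. Family genes named are the 3 of largest net change per comparison, with ties counted. A count of 33 family genes and marker genes of 6 cell types served as context. Alternatives were other windows, a stricter q, equal list lengths and another overlap.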

Additional observations from a re-analysis of the deposited data

Results flagged for a closer look

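In all, 3 genes had site counts that moved in opposite directions after KCl in the 2 genotypes. Ctnna1 went from 3 sites to 0 in WT (a net change of −3) and from 0 to 2 in cKO (2). Cdh8 went from 2 to 0 in WT (−2) and from 0 to 2 in cKO (2). Fewer in WT and more in cKO was also the pattern of 28.5% of all protein-coding genes. Ctnna2 did the reverse, from 5 to 6 in WT (1) and from 4 to 3 in cKO (−1), as did 2.31% of all genes. With 1 list per condition these differences between genotypes were not tested. The cause was not tested either, and list length moved as Ctnna1 and Cdh8 did, with fewer peaks after KCl in WT and more in cKO, and opposite to Ctnna2.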

How the results depend on the processing

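The 9 shares of sites (in the first or the second list only, and in all 4 lists) were recomputed under 6 alternatives. These were windows of 10 and 100 kb, peaks with −log10 q of at least 2, equal list lengths, an overlap of at least 50% of the shorter peak and, chosen after the data were seen, the joining of peaks less than 500 bp apart. All 54 values stayed inside the 95% interval of the reported share. This says little, because the intervals are wide (for example 27.0 to 59.1 for WT basal only against cKO basal) and the alternatives share most sites. Equal list lengths turned the order of the 2 one-list counts between WT KCl and cKO KCl (36.4% and 27.3%) and between cKO basal and cKO KCl (25% and 17.9%). A 10 kb window turned it for WT KCl and cKO KCl (32.3% and 29.0%). The counts were tied for that pair with 50% overlap (34.2% each) and joining (33.3% each), and for the cKO pair with joining (21.4% each). The net changes of Ctnna1, Cdh8 and Ctnna2 after KCl kept their sign in all 36 recomputed values. Their size moved in WT from −3 to −1 (Ctnna1) and from −2 to −1 (Cdh8) at 10 kb and from 1 to 3 (Ctnna2) with equal lengths or the stricter q, and equal lengths also took Ctnna1 in WT to −2, as did 100 kb, and Cdh8 in cKO from 2 to 1. No paired analysis was possible because each condition has 1 list and no values per library, and leaving out a replicate was not run for the same reason. Pileups near 30 fragments limit what a missing peak can show.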
